A study of Mus musculus with 6 samples.

Results

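Calcium buffers and plasma membrane calcium pumps were described in the cochlea of young and old DBA/2J mice. The group was set by gene symbol and comprised the buffer genes Calb1, Calb2, Pvalb and Ocm and the pump genes Atp2b1, Atp2b2 and Atp2b4. All probe sets annotated with exactly one of these 7 symbols were taken, which gave 7 probe sets of 4 genes out of 22626 probe sets (12393 named genes) on the array. Calb1 had 2 probe sets, Calb2 and Pvalb had 1 each and Atp2b2 had 3. Ocm, Atp2b1 and Atp2b4 had no probe set annotated with their symbol, alone or beside others, and were not analysed here.

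The RNA was total RNA of whole cochlea, where sound is transduced, from male mice of DBA/2J, an inbred strain with early, progressive hearing loss. The younger group was 7 weeks old and the older group 36 weeks old, with 3 samples per age and 1 single-colour Affymetrix array per sample. No agent, transgene or induced mutation was listed for either age, and both ages shared strain, sex, housing and diet. The question was how cochlear transcripts change over the span in which the strain loses hearing. The labels do not say whether a sample is 1 mouse or a pool, so the p-values measure the spread between these samples, which may be technical in part.

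Calcium enters hair cells through the transduction channels of the hair bundle and through voltage-gated channels at the ribbon synapse. Mobile proteins with EF-hand loops bind the ion within the cell, and ATP-driven pumps of the plasma membrane return it to the fluid outside. Calb1 encodes calbindin-D28k, Calb2 calretinin, Pvalb parvalbumin alpha and Ocm oncomodulin, the parvalbumin of outer hair cells. Atp2b2 encodes PMCA2, the pump of the hair bundle, whose loss in deafwaddler mice causes deafness and unsteady gait. None of these genes is restricted to hair cells. Calbindin, parvalbumin and PMCA2 are abundant in Purkinje cells of the cerebellum, calretinin in cerebellar granule cells and many other neurons, and parvalbumin in fast skeletal muscle fibres.

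The 6 arrays had median signals between 766.3 and 859.4 (linear units) and nearly equal trimmed means (1489.8 to 1492.5, without the lowest and highest 2% of values). On the log2 scale the arrays of 1 age correlated at r = 0.944 to 0.950 over all probe sets (6 pairs of arrays) and those of different ages at 0.896 to 0.903 (9 pairs), and no array stood apart from its group. Coch, cochlin, and Otos, otospiralin, which mark cochlear fibrocytes, had mean signals of 82144 and 73912 at 7 weeks and 21556 and 13801 at 36 weeks. Genes known from tissue outside the cochlea were bright as well, and differed between the ages in both directions. Acta1, the actin of skeletal muscle, had a mean of 51865 at 7 weeks and 16460 at 36 weeks. Gh, growth hormone of the pituitary, went from 3802 to 64172, and the mucus genes Tff2 and Muc5b from 5021 to 115985 and from 4296 to 78734. The part of such tissue in the members' values was not tested. With 3 arrays per age, precision is limited throughout.

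The 4 measured genes did not move as one. Calb1 and Atp2b2 were higher at 36 weeks, by 1.57-fold each on their brightest probe sets, while Calb2 was 2.20-fold and Pvalb 1.57-fold lower. These folds are ratios of mean signals. Of the 7 probe sets, 4 had a mean signal over the 6 arrays above the 40th percentile (593.6) and entered the test. By limma with Benjamini-Hochberg adjustment over all 13575 tested probe sets, 2 of these 4 were higher and 2 were lower at an adjusted p under 0.05. Among all tested probe sets 16.7% were called higher and 17.7% lower, so a call in either direction was common on these arrays. Centring each array on its median changed no call of the 4 but shifted the median difference of all tested probe sets by -0.10 on the log2 scale.

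**Figure D1:**
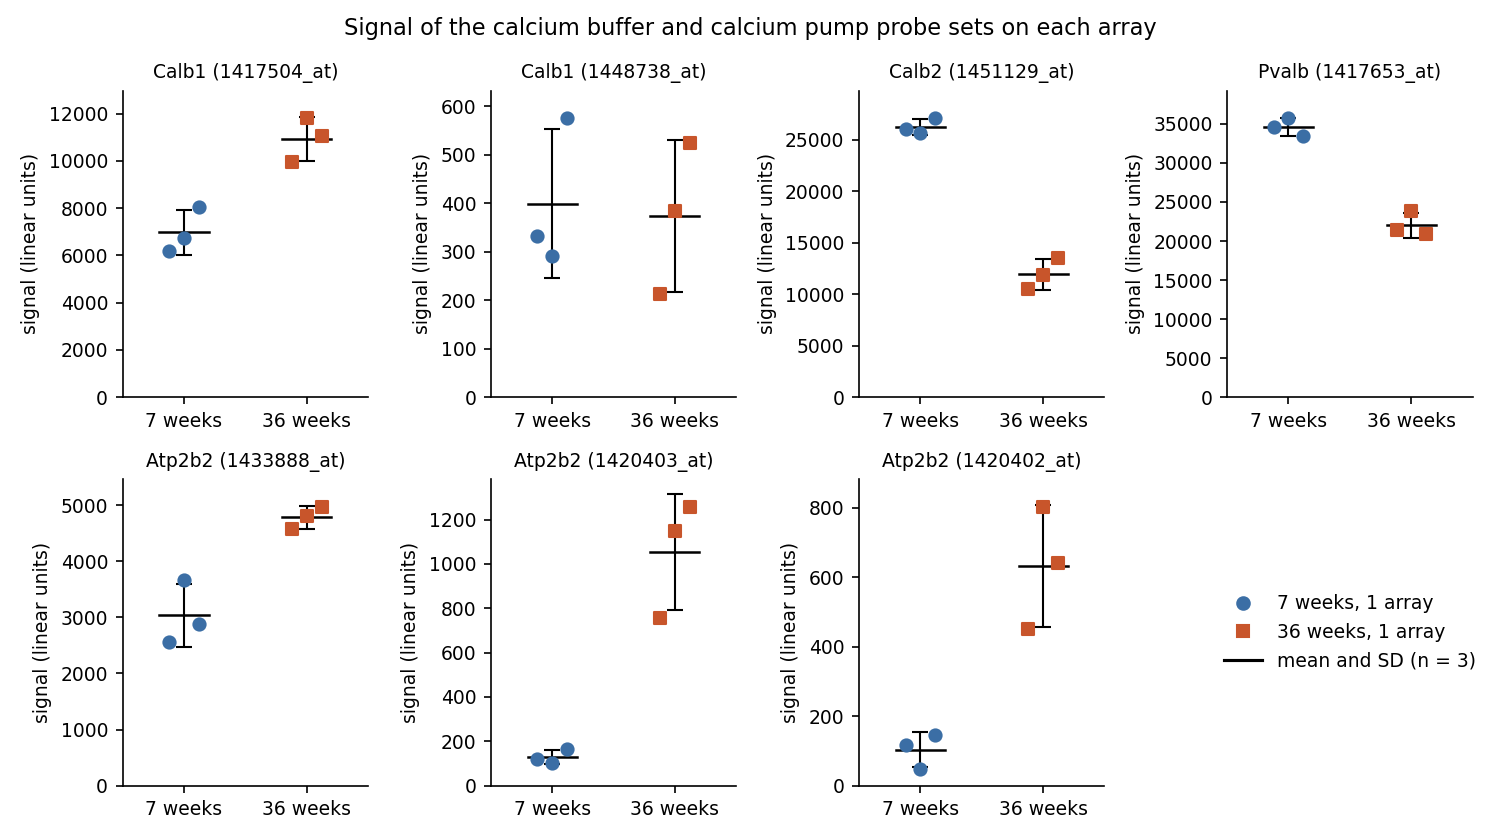
Signal in linear units of each of the 7 probe sets on each array, with 7 weeks as circles and 36 weeks as squares; bars give the mean and the SD of 3 arrays, and each panel has its own axis from 0. The ages are separated for both directions of change (Calb1 1417504_at and the 3 Atp2b2 probe sets higher, Calb2 and Pvalb lower at 36 weeks) and overlap only for the dim Calb1 probe set 1448738_at.

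Calb1 was measured by probe set 1417504_at with signals of 6175, 6743 and 8037 in the 3 samples of 7 weeks and 9951, 11797 and 11065 in the 3 of 36 weeks. Every array of 36 weeks lay above every array of 7 weeks, and the closest arrays of the 2 ages differed by 1.24-fold. The mean went from 6985 ± 954.2 to 10938 ± 929.8 (SD, n = 3 each). The log2 difference, computed as log2(signal + 50) at 36 weeks minus 7 weeks, was 0.65 with a 95% interval of 0.41 to 0.89 and an adjusted p of 0.000949 (limma). The second Calb1 probe set, 1448738_at, was dim, with signals of 332.8, 290.7 and 575.2 at 7 weeks and 212.1, 384.4 and 524.9 at 36 weeks. These ranges overlapped, with 4 of the 9 possible young-to-old pairs higher at 36 weeks and 5 lower. In a fit with no filter its log2 difference was -0.11 with an interval of -1.03 to 0.82 (limma adjusted p = 0.895), which also contains the value of the brighter probe set.

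Calb2 had the largest difference of the 4 tested probe sets. The signals of 1451129_at were 26069, 25640 and 27089 at 7 weeks and 10500, 11852 and 13515 at 36 weeks. The lowest young array was 1.90-fold above the highest old one. The mean fell from 26266 ± 744.3 to 11956 ± 1510 (SD, n = 3 each), a log2 difference of -1.14 with a 95% interval of -1.34 to -0.94 and a limma adjusted p of 5.28e-06. The spread was wider at 36 weeks, where the coefficient of variation was 12.6% against 2.8% at 7 weeks. Calretinin marks inner hair cells and neurons in the mature cochlea. In a whole organ the number of cells, the transcript per cell and the share of other tissue in the sample cannot be told apart. This holds for every value given here.

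Pvalb was lower at 36 weeks by a smaller amount. Probe set 1417653_at read 34588, 35710 and 33514 on the young arrays and 21424, 23827 and 20846 on the old ones. The ages did not overlap, with a gap of 1.41-fold between the closest arrays. The mean went from 34604 ± 1098 to 22032 ± 1581 (SD, n = 3 each), a log2 difference of -0.65 with a 95% interval of -0.80 to -0.50 and a limma adjusted p of 4.12e-05. Parvalbumin therefore differed in the direction of calretinin and opposite to calbindin.

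Atp2b2, the only pump gene with a probe set here, had higher signals at 36 weeks on all 3 of its probe sets. The bright probe set 1433888_at had signals of 2567, 3660 and 2886 at 7 weeks and 4572, 4804 and 4969 at 36 weeks. The young arrays were the more variable, and the second of them came within 1.25-fold of the lowest old array. Means were 3038 ± 562.3 and 4782 ± 199.1 (SD, n = 3 each), and the log2 difference of 0.66 had a 95% interval of 0.38 to 0.94 and a limma adjusted p of 0.00263.

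The other Atp2b2 probe sets were near the floor of the signal in young cochlea. Probe set 1420403_at read 121.2, 102.2 and 164.9 at 7 weeks and 756.7, 1147 and 1258 at 36 weeks. Its mean over the 6 arrays, 591.6, fell just short of the filter at 593.6. Probe set 1420402_at read 116.0, 47.7 and 147.2 at 7 weeks and 450.7, 802.8 and 642.2 at 36 weeks. All 9 pairs were higher at 36 weeks for both. In the fit with no filter, which called 9.56% of 22626 probe sets higher and 9.99% lower, both passed, with log2 differences of 2.61 (interval 1.85 to 3.37, limma adjusted p = 0.000595) and 2.18 (1.27 to 3.09, adjusted p = 0.0047). With young signals this close to the floor these sizes depend on the offset (3.01 and 2.70 with an offset of 1), so they give a direction and no size to set against the bright probe set. The transcripts of Atp2b2 that each probe set reads were not determined.

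Counted over all 7 probe sets, 4 were higher and 2 lower at 36 weeks with no overlap between the ages. The 4 include all 3 of Atp2b2, which read 1 gene in the same samples. Counted by gene in the limma test, 2 were called higher and 2 lower (17.5% and 17.6% of all tested genes were). Among all 22626 probe sets the ages were separated with 36 weeks higher for 19.2% and lower for 17.8%. The dim Calb1 probe set was the 1 with overlap.

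**Figure D2:**
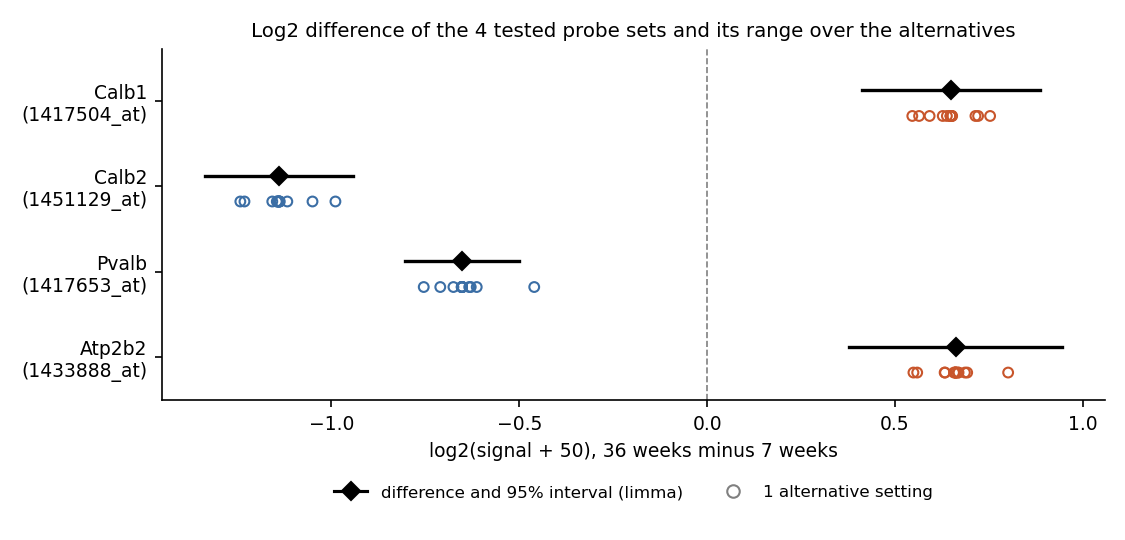
Log2 difference, 36 weeks minus 7 weeks, of the 4 tested probe sets, with the 95% interval of the limma fit (diamonds and bars) and the value under each of 14 alternative settings (open circles). Calb1 and Atp2b2 stay above 0 and Calb2 and Pvalb below 0 in every setting drawn, from -1.24 for Calb2 to 0.80 for Atp2b2.

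Marker genes of cell types that express these members also differed between the ages, and their part in the members' values was not tested. The fitted values of lists count genes by their brightest tested probe set, and 17.5% of 8555 genes were called higher and 17.6% lower, with a median log2 difference of 0.02. Of 13 hair cell genes on the array, only 6 passed the filter, and Pou4f3, the hair cell transcription factor, Slc26a5, prestin, and Strc, stereocilin, were among the 7 below it (all 3 named after their values were seen). Of the 6, 3 fell and 0 rose. Ush1c, harmonin of the hair bundle, had a log2 difference of -2.35 ± 0.38 (SE), Myo6, the unconventional myosin VI, -0.92 ± 0.18 and Otof, otoferlin of the ribbon synapse, -0.40 ± 0.14. The mean of Ush1c at 36 weeks, 395.1, lay below the filter of 593.6, so its value gives a direction more than a size. The other 3, Myo7a and Myo15, myosins of the hair bundle, and Tmc1, of the transduction channel, were likewise named after their values were seen. They had differences of 0.35 ± 0.26, 0.23 ± 0.21 and -0.08 ± 0.28 and did not pass. The summed signal of the 6 ranged from 8454 to 9318 on the young arrays and from 5429 to 6440 on the old ones. Calb2 and Pvalb were lower as these 3 genes were, whereas Calb1 and Atp2b2 were higher, and the other 3 hair cell genes passed in neither direction.

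Most neuronal marker genes that passed the test were higher at 36 weeks. In the cerebellar neuron and brain list 12 of 15 tested genes rose and 0 fell, with a median log2 difference of 1.78 (11 and 0 with quantile scaling, 11 and 1 with centring). Aldoc, the brain aldolase, rose by 1.73 ± 0.06, Cbln1, the synaptic organiser of granule cells, by 2.54 ± 0.11 and Gabra6, a GABA receptor subunit of granule cells, by 2.24 ± 0.11 (SE). Pcp2 and Car8, both genes of Purkinje cells and singled out after their values were seen, rose by 1.78 ± 0.10 and 2.08 ± 0.15. The summed signal of the list ranged from 28690 to 29225 at 7 weeks and from 85540 to 90292 at 36 weeks. Calb1 and Atp2b2 went in the direction of this list, while Pvalb and Calb2, which cerebellar neurons also express, went the other way. In the list of spiral ganglion and peripheral neurons 7 of 13 rose and 2 fell (3 with centring), with a median of 0.45, led by Prph, peripherin, Stmn2, a growth-associated tubulin regulator, and Sncg, gamma-synuclein, with differences of 2.51, 1.14 and 1.22. The 2 that fell, named after their values were seen, were Gata3 and Nefh, with differences of -3.04 and -0.33. Gata3 had the largest difference of the list and went from a mean of 1128.9 to a dim 94.8. The list's summed signal was 124081 to 129612 in young and 164034 to 174558 in old samples.

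Skeletal muscle genes were lower at 36 weeks. Of 23 tested, 23 fell, by a median of -1.90 on the log2 scale, and their summed signal went from between 374217 and 394417 to between 121384 and 124653. Tnni2, fast troponin I, Acta1, skeletal actin, and Mylpf, the fast myosin regulatory light chain, differed by -1.94, -1.65 and -2.32. Pygm, muscle glycogen phosphorylase, Actn3, alpha-actinin 3, and Ckm, muscle creatine kinase, singled out after their values were seen, differed by -0.60, -0.76 and -0.86. The fall of Pvalb, -0.65, stood in the same direction and was smaller than all but that of Pygm.

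The remaining marker lists cover other cells and tissues that the dissected samples could hold. Neutrophil genes, led by S100a9, Ltf and Pglyrp1, were higher in 14 of 14 tested (median 3.84), and their summed signal went from between 52067 and 57328 to between 747107 and 796056. Among airway epithelium genes 12 of 17 rose and 2 fell (median 0.68, and 11 rose with quantile scaling). The rises were led by Tff2, Muc5b and Bpifb1. The 2 that fell, named after their values were seen, were Cdh1 and Epcam, with differences of -1.07 and -0.37. The sum of this list went from between 191046 and 200542 to between 608046 and 651769. Of 7 pituitary genes 5 rose and 0 fell (4 and 0 with quantile scaling or centring). Their median was 0.74, and the hormone genes Gh, Prl and Cga, which had the smallest p, rose by 4.06, 3.70 and 4.02 on the log2 scale. Cga had a mean of only 144.2 at 7 weeks, so its value gives a direction more than a size. The list's sum went from between 7500 and 8689 to between 78149 and 84525. Spiral ligament and strial genes fell in 14 of 15 (median -1.88), led by Otos, Coch and Gjb2. Supporting cell and tectorial membrane genes fell in 6 of 10 and rose in 2 (median -0.99, and 7 and 1 with centring). Epyc, S100a1 and Otoa led the falls. The 2 that rose, named after their values were seen, were Slc1a3 and Lfng, with differences of 1.01 and 0.51. Of 10 bone genes 4 fell and 1 rose (median -0.25), Ibsp, Dmp1 and Phex having the smallest p. These were among the falls, and Ibsp and Phex were dim at 36 weeks, with means of 196.0 and 307.5. The 1 that rose, named after its value was seen, was Col1a1, by 0.53. The erythroid list was near the shares over all genes. Of its 6 genes 1 fell, Slc4a1, and 1, Sptb, rose, the latter not when arrays were scaled by quantiles or centred (limma adjusted p of 0.0529 and 0.0812), and Alas2 was not called, though it passed as higher with quantile scaling (limma adjusted p = 0.0354). The list's median was 0.06, and -0.04 with centring.

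**Figure D3:**
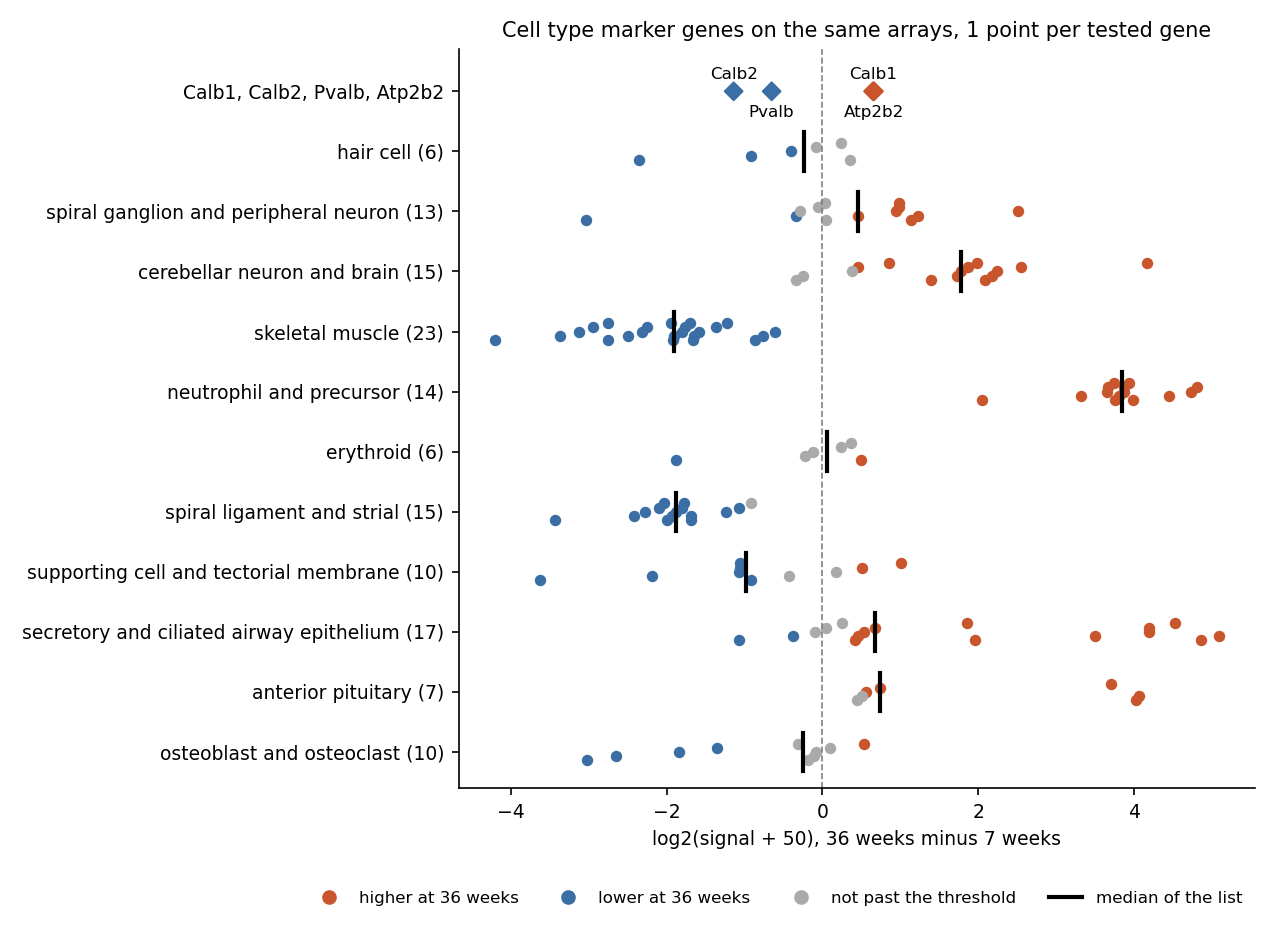
Log2 difference, 36 weeks minus 7 weeks, of each tested marker gene (points, 1 row per list with the number of tested genes in brackets) and the list's median (black bar), with the 4 buffer and pump genes as diamonds in the top row. Cerebellar genes have a median of 1.78 and skeletal muscle genes one of -1.90, and Calb1 and Atp2b2 overlie each other at about 0.65.

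The other calcium handling genes were counted in 4 lists, against 17.5% of all genes called higher and 17.6% lower. With so few genes a list, nothing particular to a list is read from its counts. The first list held pumps and exchangers together with pump regulators and auxiliary subunits, such as Sln, Nptn and Bsg. Of its 11 tested genes 1 rose, 2 fell and 8 did not pass. Its median of -0.01 became 0.02 with quantile scaling and -0.12 with centring. Atp2a3, the endoplasmic reticulum pump SERCA3 found in blood cells among others, rose by 1.59 ± 0.16 (SE). Atp2a1, the SERCA1 pump of fast muscle, fell by 1.12 ± 0.06, and Sln, sarcolipin, its inhibitor in muscle, fell by 3.52 ± 0.26 to a dim 277.8. With centring 4 of the list passed as lower instead of 2. Nptn and Bsg, neuroplastin and basigin, the auxiliary subunits of the plasma membrane pumps, had differences of -0.21 ± 0.10 and -0.01 ± 0.07 without passing, while Atp2b2 rose. These subunits were named after their values were seen.

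EF-hand sensors and buffers other than the members also divided. Of 26 tested, 6 rose and 8 fell, and 12 did not pass (4 and 8 called with centring), with a median of 0.12. The 12 include Pcp4, a calmodulin regulator without an EF hand, named after its value was seen. The rises were led by sensors of neurons. Hpcal1, hippocalcin-like 1, rose by 1.29 ± 0.09, Caln1, calneuron 1, rose 2.95-fold from a mean of 809.6, and Ncald, neurocalcin delta, and Hpca, hippocalcin, rose by 0.77 ± 0.09 and 1.06 ± 0.14 (SE). The falls were led by Calml4, a calmodulin-like light chain, with -1.91 ± 0.14, and Efhd1, a mitochondrial EF-hand protein, with -1.68 ± 0.13. Rcn1, reticulocalbin, and Calu, calumenin, which bind calcium in the secretory pathway, fell by 1.23 ± 0.14 and 0.52 ± 0.08.

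Among voltage-gated channel subunits 4 of 10 tested rose and 0 fell, with a median of 0.13, and 9 more were on the array but below the filter. Cacng5, listed here by its gamma subunit family name alone, and Cacnb4, an auxiliary subunit, rose by 0.88 ± 0.20 and 0.87 ± 0.20. Cacna1g, a pore of T-type channels, and Cacna1a, the P/Q-type pore abundant in Purkinje cells, rose by 0.85 ± 0.20 and 0.83 ± 0.23 (SE). Cacna1d, the pore that serves the inner hair cell synapse and was singled out after its value was seen, had a difference of 0.35 ± 0.18 and did not pass (limma adjusted p = 0.154). The 4 that rose had mean signals of at most 845.8 at 7 weeks, not far above the filter, where the difference depends most on the offset.

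Genes of calcium stores and mitochondrial uptake had 3 rises and 5 falls among 18 tested, and a median of 0.08 that turned to -0.02 with centring. Calr, calreticulin of the endoplasmic reticulum, rose by 0.40 ± 0.06 and Ryr2, the ryanodine receptor of heart and brain, by 1.11 ± 0.19. Itpr3, an inositol trisphosphate receptor, rose by 0.39 ± 0.11, but not with centring (limma adjusted p = 0.0631). Casq1, calsequestrin, Ryr1, the muscle ryanodine receptor, and Trdn, triadin, all of the muscle calcium release complex, had differences of -1.27 ± 0.10, -1.34 ± 0.14 and -2.49 ± 0.41 (SE). Canx, calnexin, had -0.37 ± 0.09. Muscle-type genes among the falls stood beside the skeletal muscle list, whose summed signal is given above.

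**Figure D4:**
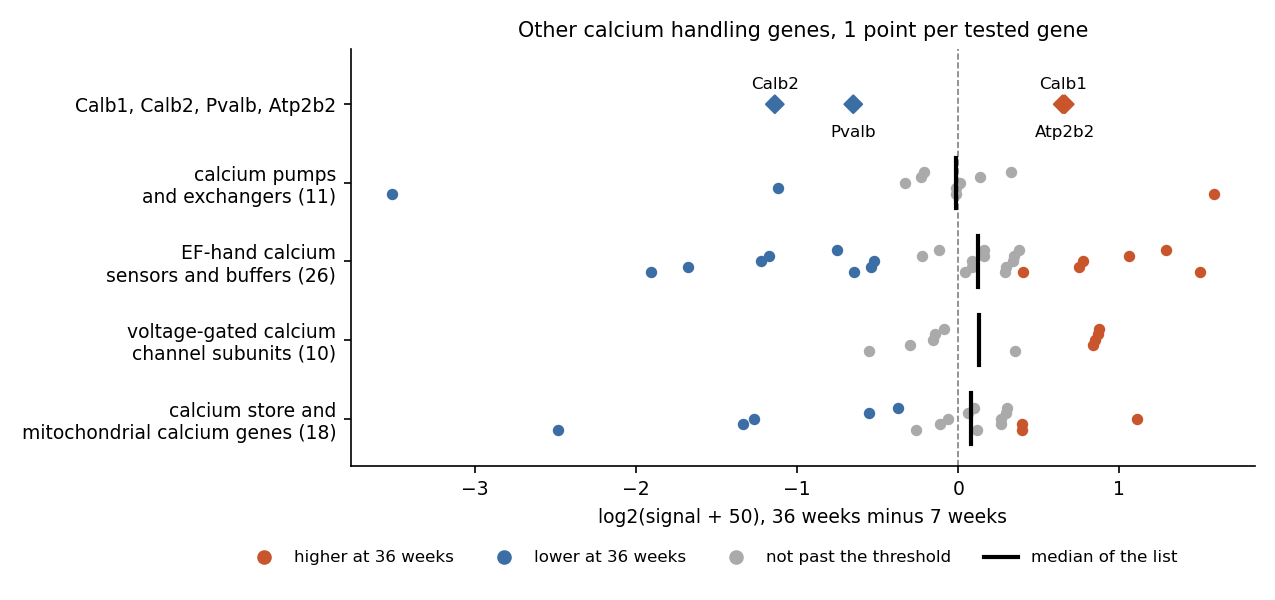
Log2 difference, 36 weeks minus 7 weeks, of each tested gene of 4 calcium handling lists (points, number of tested genes in brackets), with the list's median as a black bar and the 4 buffer and pump genes as diamonds. Points lie on both sides of 0 in every list, and all 4 medians lie between -0.01 and 0.13.

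The genes whose profile over the 6 arrays was most like each member were found by the root mean square difference of log2 values, each gene taken relative to its own mean. Among 8554 other genes, Slc6a9, a glycine transporter, and Stx2, syntaxin 2, were nearest to Calb1, at 0.028 and 0.036 (median of all genes 0.413). F2r, the thrombin receptor, whose probe set, of the _s_at kind, may also hybridise with related genes, and Fap, a protease of activated fibroblasts, were nearest to Calb2, at 0.059 and 0.066 (median 0.625). Dag1, dystroglycan, and Mdh1, cytosolic malate dehydrogenase, were nearest to Pvalb, at 0.022 and 0.036 (median 0.407). Ifitm1, an interferon-induced membrane protein, and Epb41l4b, a band 4.1 family protein, were nearest to Atp2b2, at 0.061 and 0.062 (median 0.431). With 6 arrays in 2 ages, such likeness reflects the step between ages and the spread of 3 arrays within each, and some gene lies close to any profile.

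**Figure D5:**
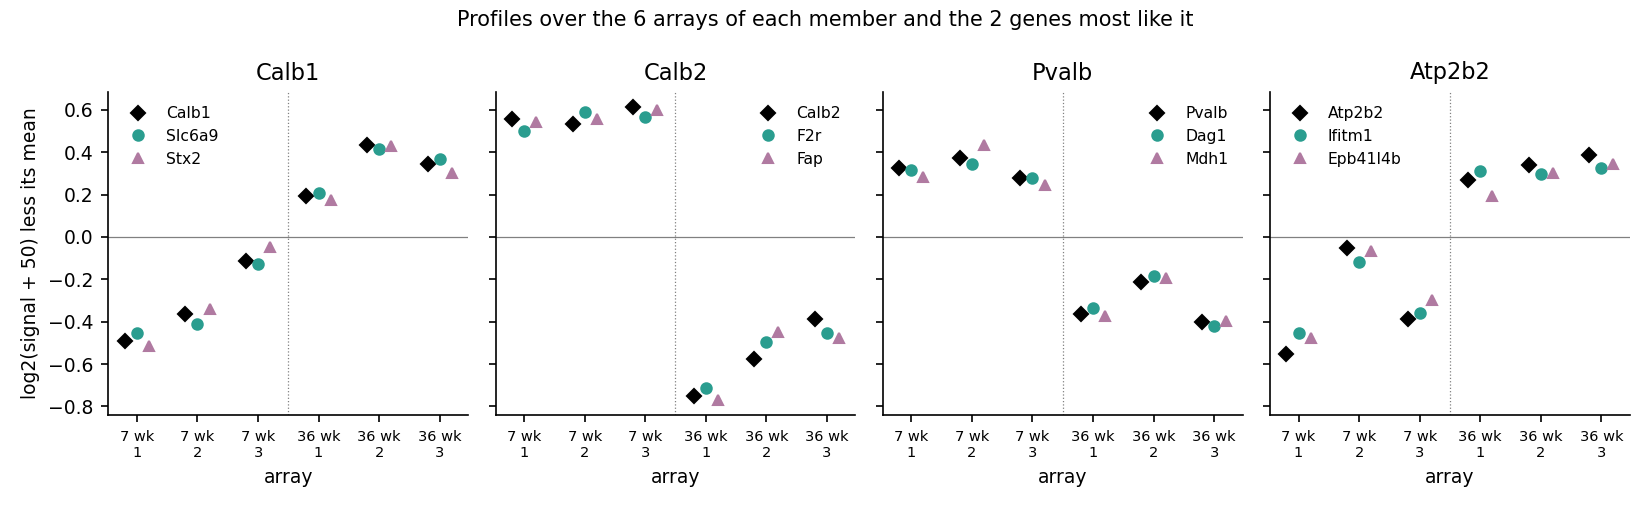
Log2(signal + 50) less its own mean on each of the 6 arrays, for each member (diamonds) and its 2 nearest genes (circles and triangles); points are offset sideways for view, and the dotted line divides 7 from 36 weeks. Each gene lies near its member on every array, with root mean square differences of 0.022 to 0.066, though the order of the arrays within an age is not always the same.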

How the data were processed

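Total RNA was isolated with TRIzol and biotin-labelled cRNA hybridised to Affymetrix arrays, per the labels' protocols. The authors deposited 1 intensity per probe set and array, on a linear scale of unknown unit, scaled to an equal trimmed mean. Summarising software: not given in the sources used here. Gene names came from GEO's annotation of the platform (20380 with 1 symbol, 691 with several, 1555 with none), and only those with 1 symbol were named. Differences are on the log2(signal + 50) scale and so too small where signals are dim. The filter kept probe sets whose mean exceeded the 40th percentile, and limma 3.58.1 (lmFit, then eBayes with an intensity trend) was run on them in R 4.3.3, 36 weeks minus 7 weeks, unpaired and two-sided, adjusted by Benjamini-Hochberg over all of them; figures used matplotlib 3.10.9 in Python 3.11.15. The procedure was tested on simulated data. Exact permutation of 3 against 3 samples cannot reach the threshold and was left out. A list's genes are represented by their brightest tested probe set. For S100a1 and Canx this was of the _s_at kind and for Bpifb1 and Slc4a1 of the _x_at kind. Like that of F2r, these may also hybridise with related genes.

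Members and lists were chosen with earlier results of these data known. Named are every member probe set, up to 4 called genes per direction of each calcium list, the 3 genes with the smallest p of each marker list, other probe sets of these genes called in the opposite direction (there were none), and the 2 genes nearest to each member. Genes outside this rule are marked in the text, and Coch, Otos, Acta1, Gh, Tff2 and Muc5b, all named by it, are also given first as a check of the tissue. The alternatives were offsets of 1 and 16, quantile normalization, median centring, no filter or one at the 60th percentile, eBayes with no trend, a replicate block, leaving out single arrays, a rule of 9 pairs with a 1.5-fold minimum, and, for counts by gene, the mean of a gene's probe sets.

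Same-numbered samples of the 2 ages did not deviate together from their age means (correlations of -0.01 to 0.05), so the numbers were not taken to pair them.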

Additional observations from a re-analysis of the deposited data

How the results depend on the processing

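The 4 tested probe sets kept their direction and an adjusted p under 0.05 (limma) in each of 14 alternative fits. The log2 difference ranged from 0.55 to 0.75 for Calb1, from -1.24 to -0.99 for Calb2, from -0.75 to -0.46 for Pvalb and from 0.55 to 0.80 for Atp2b2. The largest adjusted p of each came without the intensity trend, at 0.0128, 0.000881, 0.00461 and 0.016. With no filter 4 member probe sets, still of 2 genes, were called higher instead of 2, because the dim Atp2b2 probe sets entered the test. With the replicate block 2 were higher and 2 lower, as without it, and over all probe sets the block gave 2121 higher and 2254 lower calls against 2267 and 2398. The rule of 9 pairs with a 1.5-fold minimum, which sets a size and no p, gave 1496 lower calls in place of 2398. Centring made 36.0% of all calls higher and 64.0% lower, against 48.6% and 51.4% as deposited. Leaving out 1 array gave 1801 to 2043 higher and 1855 to 2073 lower calls. Dim signals limit the sizes of the Atp2b2 probe sets 1420403_at and 1420402_at, and the second Calb1 probe set.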
